A study of Rattus norvegicus with 8 samples.

Results

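The 8 genes followed here were grouped as contractile and calcium genes of fast-twitch muscle fibres. They were measured in rat soleus on 8 expression arrays. They are the myosin heavy chains Myh2 and Myh4, the myosin light chain Mylpf, the troponins Tnni2 and Tnnt3, and the calcium-handling genes Casq1, Atp2a1 and Pvalb. A probe set belonged to a gene where the platform annotation gave that gene as its only symbol. Mylpf stands there under its current symbol Myl11, of which Mylpf is a listed synonym. This gave 9 of 8740 probe sets, 2 for Mylpf and 1 for each of the other genes, and all 9 were bright enough on average to be among the 5244 tested. A further probe set lists 3 myosin heavy chain genes, Myh2 among them, and was not used. The walked group was 2 pools of female rats kept off their hindlimbs for 12 h and then given 2 h of treadmill walking spread over 4 h, in which each 30 min on the belt was followed by 30 min of activity in the cage. The unloaded group was 3 pools after the 12 h without hindlimb weight bearing. The control group was 3 pools after 12 h of ordinary cage activity. Each array received labelled RNA of the soleus of 8 to 10 rats pooled together, so the spread between arrays is that between pools and not between rats.

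Skeletal muscle fibres are built from alternative sets of contractile proteins. Slow fibres use the slow myosin heavy chain Myh7 and slow troponins, while fast fibres use Myh2 (type 2A), Myh1 (type 2X) or Myh4 (type 2B) with fast light chains and fast troponins. Fast fibres also relax quickly, with the calcium pump Atp2a1 returning calcium to the sarcoplasmic reticulum, calsequestrin Casq1 storing it there and parvalbumin Pvalb binding it in the cytosol. The rat soleus is a postural muscle made mostly of slow fibres with a minority of type 2A fibres, and weeks of unloading are known to shift it towards the fast programme. Which of these genes differ after hours of unloading or walking was the question here. No group bore weight again without walking. Between walked and unloaded pools, walking, cage activity between bouts and the added 4 h therefore cannot be told apart.

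The values are MAS5 signals on a linear scale, with array medians between 37.1 and 42.4. Correlations of log2 signal were 0.949 to 0.963 within groups and 0.913 to 0.945 between them. Control pool 3 correlated least with its own group, at a mean of 0.951, against 0.955 to 0.963 for the other arrays. The slow fibre character of the tissue showed in Myh7, whose signal was 7409 ± 823 in walked (SD, n = 2), 6312 ± 923 in unloaded (n = 3) and 5326 ± 167 in control soleus (n = 3). The words called, rose and fell are kept for limma's adjusted p under 0.05. In whole muscle, fewer fast fibres and less RNA per fibre cannot be told apart.

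The promoters of the 3 genes that were called in a comparison, Myh2, Tnni2 and Casq1, are shown beside that of Myh4, the dim myosin of the same gene cluster as Myh2. RefSeq windows on GRCr8 were found for 7 of the 8 genes (none was matched for Tnnt3). Each line gives the 250 bases before an annotated start, 5′ to 3′ on the gene's strand. The windows of Tnni2, Mylpf and Pvalb lie inside the annotated span of their gene, and the others end at its edge. Capitals mark matches, on either strand, to the E-boxes CAGCTG and CACCTG, the MCAT motif CATTCC, the TATA motif TATAAA, the MEF2 motif or the CArG box, which were found by letters alone.
Myh2 (chr10:52355489-52355738, plus strand): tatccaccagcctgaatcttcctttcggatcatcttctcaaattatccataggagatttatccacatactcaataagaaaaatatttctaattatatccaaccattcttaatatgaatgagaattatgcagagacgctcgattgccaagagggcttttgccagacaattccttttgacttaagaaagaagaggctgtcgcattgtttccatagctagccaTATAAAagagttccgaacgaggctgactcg
Tnni2 (chr1:207024240-207024489, plus strand): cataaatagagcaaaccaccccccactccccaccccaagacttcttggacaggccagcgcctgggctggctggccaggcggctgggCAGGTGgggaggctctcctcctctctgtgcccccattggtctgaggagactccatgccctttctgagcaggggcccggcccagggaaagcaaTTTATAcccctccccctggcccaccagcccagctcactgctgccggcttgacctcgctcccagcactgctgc
Casq1 (chr13:87212711-87212960, minus strand): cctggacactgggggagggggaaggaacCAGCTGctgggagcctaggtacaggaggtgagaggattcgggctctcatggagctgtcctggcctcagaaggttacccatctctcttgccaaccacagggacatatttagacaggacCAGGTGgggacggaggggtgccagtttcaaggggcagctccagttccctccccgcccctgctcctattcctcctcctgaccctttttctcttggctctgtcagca
Myh4 (chr10:52421898-52422147, plus strand): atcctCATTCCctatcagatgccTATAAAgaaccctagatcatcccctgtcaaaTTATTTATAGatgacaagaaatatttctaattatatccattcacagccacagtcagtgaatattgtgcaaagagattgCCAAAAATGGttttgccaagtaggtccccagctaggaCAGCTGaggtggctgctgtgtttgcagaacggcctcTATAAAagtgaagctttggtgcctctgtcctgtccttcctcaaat

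No motif was in the windows of all 3 called genes. TATAAA stood in Myh2 at 30 to 25 bases before the start and in Tnni2, on the opposite strand, at 72 to 67, and was not found in Casq1. CAGCTG, the E-box read by myogenic factors, was in 4 of the 7 windows (Myh4, Myl11, Casq1 and Atp2a1) and in 12% of 33469 rat windows of the same length. CACCTG was in 2 (Tnni2 and Casq1), against 15.9% of all windows. TATAAA was in 3 (Myh2, Myh4 and Tnni2), against 12.9%. The Myh4 window alone held CATTCC (12.1% of all windows), the MEF2 motif (2.96%), which overlaps 1 of its 3 TATAAA matches, and the CArG box (1.5%). The NFAT core TTTCC, not capitalised, was in 2 windows, Myh2 and Tnni2, against 56.9%. The Mylpf, Atp2a1 and Pvalb windows are not printed. That of Pvalb held 0 of the 7 motifs, and a match or its lack describes only these letters.

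The type 2A myosin Myh2 (probe set L13606_at), the fast myosin of the rat soleus, had signals of 1562 and 1322 in walked pools 1 and 2, of 2191, 2089 and 2481 in unloaded pools 1 to 3, and of 1657, 2044 and 1857 in control pools 1 to 3. All walked pools lay below all control pools, and all unloaded pools lay above them. Myh2 fell by 0.64 ± 0.14 on the log2 scale in walked against unloaded soleus (log2 fold change and SE, limma, adjusted p = 0.0303), a signal 1.56 times lower. The difference was 0.28 ± 0.13 in unloaded against control (adjusted p = 0.232) and -0.36 ± 0.14 in walked against control (adjusted p = 0.148), and neither was called by limma.

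The type 2B myosin Myh4 (L24897_s_at), which drives the fastest rat fibres, was dim. Its signals were 34.8 and 30.6 in walked, 31.5, 39.2 and 38.2 in unloaded and 42.1, 47.4 and 39.3 in control pools, close to the lower limit for testing of 25.8. The control pools were all higher than the others, while walked and unloaded pools overlapped. No comparison was called by limma, with log2 fold changes of -0.24 ± 0.26 for unloaded against control, -0.14 ± 0.30 between walked and unloaded and -0.39 ± 0.30 between walked and control (adjusted p between 0.464 and 0.862). Myosin heavy chain genes are alike in sequence, and whether their probe sets bind each other's RNA was not tested.

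Troponin I of fast fibres, Tnni2 (M73701_at), is the inhibitory subunit that holds the thin filament off between contractions. Its signals were 789 and 836 in walked, 1299, 1362 and 1709 in unloaded and 847, 1251 and 938 in control pools. The 3 groups did not overlap: every unloaded pool was higher than every control pool and every walked pool was lower. Tnni2 fell by 0.83 ± 0.18 on the log2 scale in walked against unloaded soleus (limma, adjusted p = 0.0278), a signal 1.78 times lower. Unloaded minus control was 0.54 ± 0.16 (adjusted p = 0.0789 by limma) and walked minus control -0.30 ± 0.18 (adjusted p = 0.358 by limma).

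Troponin T of fast fibres, Tnnt3 (rc_AI136540_at), ties the troponin complex to tropomyosin. It had signals of 2664 and 2417 in walked, 3203, 3155 and 3797 in unloaded and 2492, 3002 and 2470 in control pools. The unloaded pools were above all others, and the walked pools lay within or just under the range of the controls. None of the differences was called by limma: 0.35 ± 0.13 for unloaded minus control (adjusted p = 0.128), -0.41 ± 0.14 in walked against unloaded (adjusted p = 0.153) and -0.06 ± 0.14 in walked against control (adjusted p = 0.85).

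Mylpf is the phosphorylatable light chain of fast myosin. On its brighter probe set (X00975_at) signals were 2725 and 2868 in walked, 3184, 3717 and 3798 in unloaded and 2849, 3201 and 1143 in control pools. On the other (X00975_g_at) they were 1880 and 1742 in walked, 2352, 2429 and 2743 in unloaded and 1579, 2105 and 692 in control pools. Both probe sets put control pool 3 far below the other controls, so that the SD of the control signals was 45.9% and 49.0% of their mean, against 8.25% to 9.36% in unloaded and 3.64% to 5.39% in walked soleus. Unloaded minus control was 0.70 ± 0.30 and 0.92 ± 0.31 on the log2 scale (adjusted p = 0.21 and 0.105, limma), and without control pool 3 it was 0.24 and 0.46 (adjusted p = 0.367 and 0.104, limma). Walked minus unloaded was -0.34 ± 0.34 and -0.47 ± 0.35 (adjusted p = 0.672 and 0.547, limma), with every walked pool below every unloaded pool on both. Walked minus control was 0.36 ± 0.34 and 0.46 ± 0.35 with all pools (adjusted p = 0.567 and 0.461, limma), and -0.11 and -0.0077 without control pool 3.

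Calsequestrin Casq1 (rc_AI639422_at), a calcium store of the sarcoplasmic reticulum, had signals of 1734 and 1604 in walked, 2338, 1897 and 2140 in unloaded and 2279, 2393 and 2335 in control pools. Whether its signal came from fast or slow fibres was not tested. The walked pools were lower than all others, and the controls were tight, with an SD of 2.45% of their mean. Casq1 fell by 0.48 ± 0.13 on the log2 scale in walked against control soleus (limma, adjusted p = 0.0409). It differed by -0.34 ± 0.13 in walked against unloaded (adjusted p = 0.191 by limma) and by -0.14 ± 0.12 in unloaded against control (adjusted p = 0.543 by limma).

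The fast calcium pump Atp2a1 (M99223_at) had signals of 1698 and 1583 in walked, 1885, 1983 and 1421 in unloaded and 874, 1367 and 1339 in control pools. Every walked and unloaded pool was above every control pool, and the walked pools lay inside the range of the unloaded ones. Unloaded minus control was 0.58 ± 0.19 (adjusted p = 0.0948, limma) and walked minus control 0.49 ± 0.21 (adjusted p = 0.176, limma), and neither was called. Control pool 1 was the low control, and without it unloaded minus control was 0.37 (adjusted p = 0.242, limma). Walked minus unloaded was -0.09 ± 0.21, with a 95% interval of -0.55 to 0.37.

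Parvalbumin Pvalb (rc_AI175539_at), the soluble calcium buffer of fast fibres, was dim, with signals of 61.7 and 70.5 in walked, 84.8, 94.8 and 78.1 in unloaded and 29.4, 88.3 and 75.5 in control pools. The walked pools were lower than the unloaded ones, control pool 2 lay among the unloaded pools, and control pool 1 was below every other pool. Unloaded minus control was 0.56 ± 0.35 (adjusted p = 0.4 by limma) and 0.07 without control pool 1. Walked minus unloaded was -0.37 ± 0.39 and walked minus control 0.19 ± 0.39 (adjusted p = 0.691 and 0.816, limma).

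**Figure D1:**
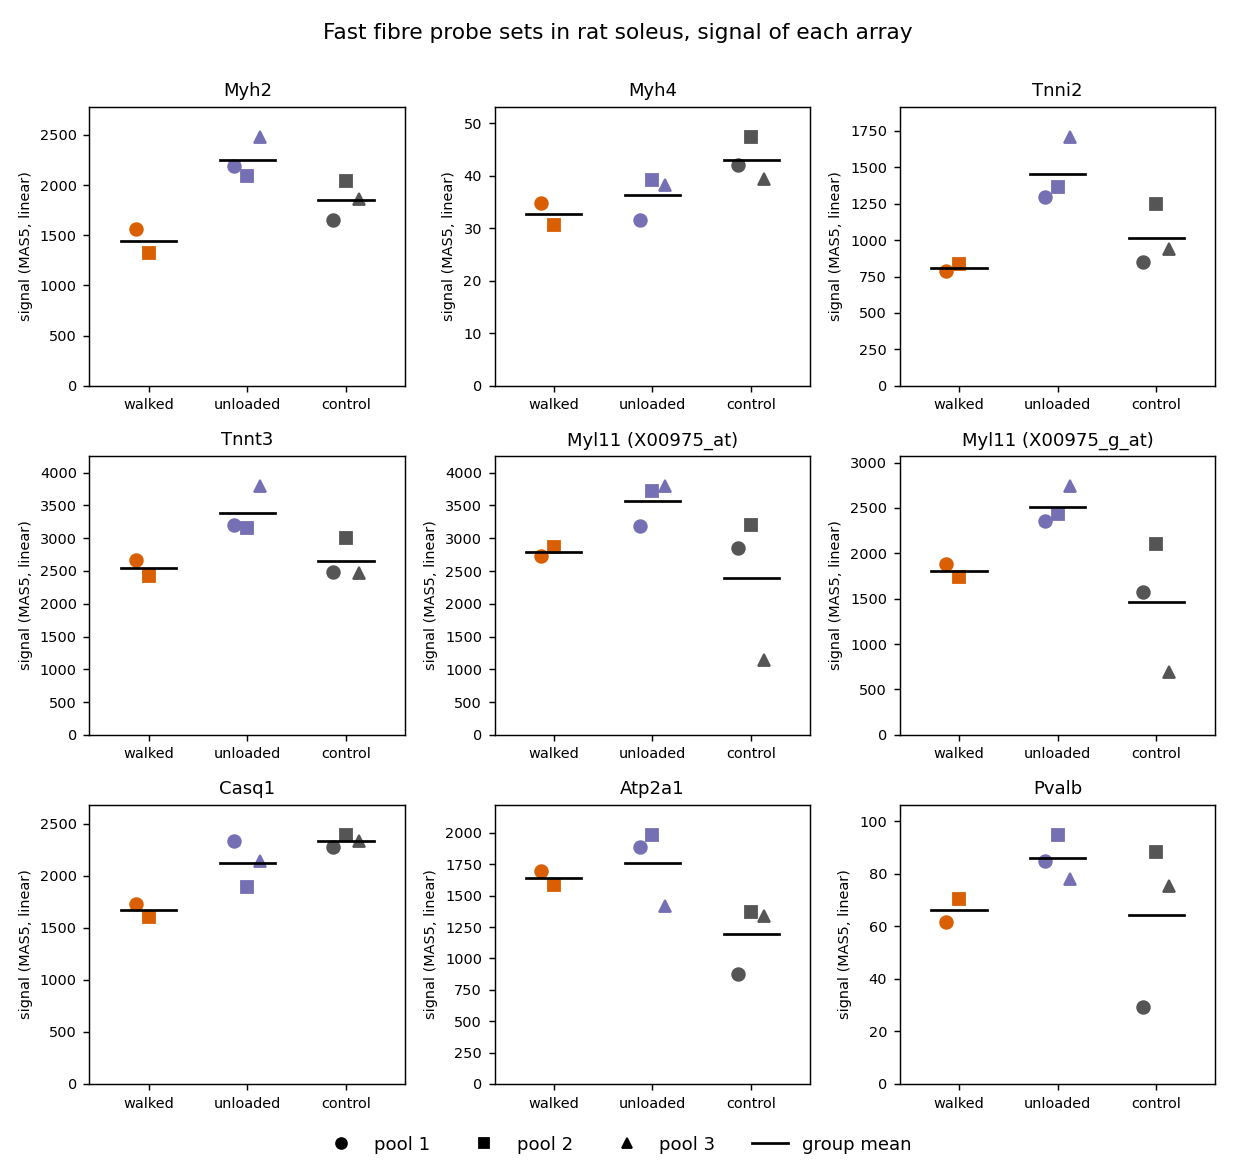
Signal (MAS5, linear axis from 0) of the 9 probe sets on each array, with walked, unloaded and control pools side by side, a marker shape for each pool number and a bar at the group mean. Unloaded pools are the highest group mean for 7 of 9 probe sets, and control pool 3 is low on both probe sets of Myl11 (Mylpf).

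The order of the group means followed 3 patterns. Walked was lowest, control between and unloaded highest for Myh2, Tnni2 and Tnnt3. For both probe sets of Mylpf, for Atp2a1 and for Pvalb, control was lowest and unloaded highest. For Myh4 and Casq1, walked was lowest and control highest. Of all these neighbouring and outer steps, the fit told apart the outer ones of Myh2 and Tnni2 (walked from unloaded) and of Casq1 (walked from control).

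In walked against unloaded soleus, 2 of the 9 probe sets fell (Myh2 and Tnni2) and 0 rose, beside 4.2% of all tested probe sets called, 2.73% higher and 1.47% lower. At an unadjusted p under 0.05, 4 were lower (Tnnt3 and Casq1 as well) and 0 higher, beside 10.5% and 6.98% of all tested. None of the 9 log2 fold changes was above 0, beside 44.7% of all tested above 0; they lay between -0.83 and -0.09 with a median of -0.37, against a median of -0.05 over all tested probe sets. In 7 of the 9 every walked pool was below every unloaded pool, as in 21.8% of all tested probe sets. The calls are at the edge of what these arrays resolve: both were lost without a walked pool, with adjusted p up to 0.258 for Myh2 and 0.181 for Tnni2 by limma, both without unloaded pool 3, that of Myh2 without unloaded pool 1 and that of Tnni2 without unloaded pool 2. Both were also lost with no filter on dim probe sets (limma, adjusted p = 0.0859 for Myh2 and 0.118 for Tnni2) and without a mean-variance trend in the fit (0.113 and 0.0993).

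In unloaded against control soleus limma called 0 of the 9, beside 7.3% of all tested probe sets called, 3.99% higher and 3.32% lower. At an unadjusted p under 0.05 it gave 6 of the 9 higher and 0 lower, beside 9.19% and 12.3% of all tested. The log2 fold change was above 0 for 7 of the 9, beside 41.3% of all tested. The median log2 fold change was 0.54, with a range of -0.24 to 0.92, against -0.08 over all tested probe sets. The median of the 9 was 0.31 without control pool 1 and 0.30 without control pool 3. In 5 of the 9 (Myh2, Tnni2, Tnnt3, 1 probe set of Mylpf and Atp2a1) every unloaded pool was above every control pool, as in 10.2% of all tested, and in 1 (Myh4) every unloaded pool was below, as in 16.1%. Without control pool 2, Tnni2 (0.70, adjusted p = 0.0272) and the dimmer Mylpf probe set (1.26, adjusted p = 0.0225) rose by limma, and without unloaded pool 3 Atp2a1 did (0.73, adjusted p = 0.0484).

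In walked against control soleus 1 of the 9 fell (Casq1) and 0 rose, beside 9.08% of all tested probe sets called, 4.46% higher and 4.61% lower. At an unadjusted p under 0.05, 1 was higher (Atp2a1) and 2 lower (Myh2 and Casq1), beside 9.17% and 15.5% of all tested. The log2 fold change was above 0 for 4 of the 9, beside 40.1% of all tested. The median log2 fold change was -0.06, against -0.11 over all tested. It had no stable sign, at -0.31 without control pool 1, 0.03 without control pool 2, 0.01 without walked pool 2 and 0.06 with the stricter filter, which leaves out Myh4, and its size also moved to -0.17 after quantile normalization, -0.11 without control pool 3 and -0.13 without walked pool 1. The ranges of 4 (Myh2, Myh4, Tnni2 and Casq1) were wholly lower in walked, as in 27.6% of all tested, and that of Atp2a1 was wholly higher, as in 15.5%. The call of Casq1 was lost without any 1 control or walked pool (limma, adjusted p up to 0.227), with no filter (0.0685) and without a trend (0.119). Unloaded against control shares its unloaded arrays with the walked against unloaded comparison and its control arrays with this one, so the 3 sets of values are not independent.

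**Figure D2:**
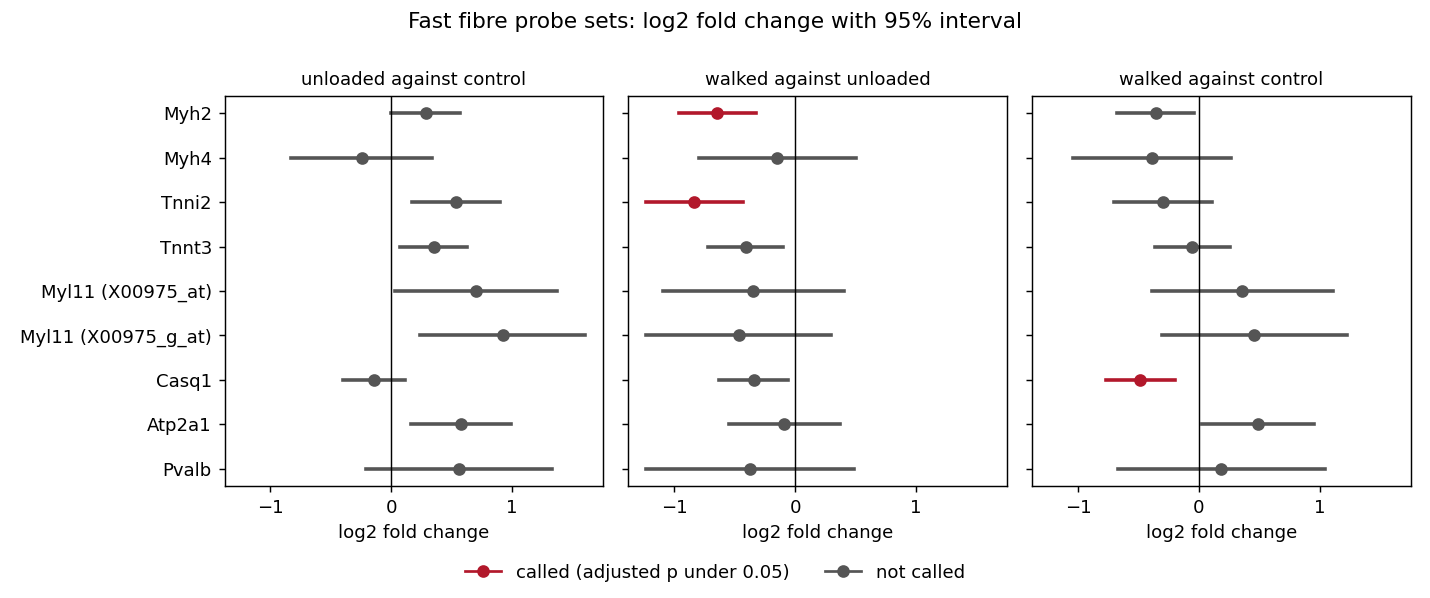
Log2 fold change (dot) and 95% interval (line) of each probe set from limma in the 3 comparisons, a panel each, with called probe sets in red and the others in grey. All 9 dots are below 0 in walked against unloaded, where Myh2 (-0.64) and Tnni2 (-0.83) are called.

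A further list, of fast fibre genes together with genes that all skeletal fibres use, did not move as a block. Its medians are thus not a reading of fast fibre genes alone. Of 12 listed, 9 were tested, 1 probe set per gene. In unloaded against control 0 rose and 1 fell (2.5% of 3154 genes fell), with a median of 0.07 against -0.08 over all genes. The fall was in Ldb3, a Z-disc protein, whose signal was 1929 ± 117 in unloaded and 2910 ± 484 in control soleus (SD, n = 3 each). Its log2 fold change was -0.58 on the brightest probe set and 0.28 and 0.44 on the other 2, and the call was lost without control pool 2 or 3 or any unloaded pool (adjusted p up to 0.0967, limma). Tpm1 was not called on its brightest probe set (0.39 in unloaded against control) but fell on another (-1.02, adjusted p = 0.0261 by limma). Its remaining probe sets were at 0.27 and 0.39. In walked against unloaded 0 of 9 were called by limma (1 higher at an unadjusted p under 0.05), with a median of 0.05. In walked against control 2 rose and 0 fell (3.74% of genes rose), with a median of 0.16 against -0.11.

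The 2 rises were in genes that all skeletal fibres use. Skeletal actin Acta1 was at 2971 ± 1193 in walked (n = 2) and 1359 ± 81.4 in control soleus (n = 3), a log2 fold change of 1.07 ± 0.24 (limma, adjusted p = 0.0221), which was 0.65 without walked pool 2 (adjusted p = 0.193). Muscle creatine kinase Ckm was at 4707 ± 572 in walked and 2522 ± 632 in control, 0.93 ± 0.24 (limma, adjusted p = 0.0361), and lost its call without control pool 2 or 3 or either walked pool (adjusted p up to 0.218). Acta1 also lost its call without control pool 2 (adjusted p = 0.0536). Tnnc2, the calcium-binding subunit that partners Tnni2 and Tnnt3, was at 2234 ± 142 in walked, 3241 ± 618 in unloaded and 2345 ± 852 in control soleus, and was not called (-0.52 ± 0.28 in walked against unloaded). The light chain Myl1 was at 3439, 3580 and 3435 in walked, unloaded and control soleus, with log2 fold changes of -0.06 to 0.06. The type 2X myosin Myh1, the gene between Myh2 and Myh4 in fibre speed, was at 250 ± 29.2 in walked, 179 ± 35.7 in unloaded and 176 ± 25.2 in control soleus and was not called (0.49 ± 0.20 in walked against unloaded, adjusted p = 0.241 by limma).

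Of 15 genes of excitation and calcium release, 7 were tested. Over all genes, 3.71% rose in unloaded against control and 3.74% in walked against control. Calm2, one of the genes for calmodulin, was at 426 ± 8.41 in walked, 314 ± 34.2 in unloaded and 166 ± 34.1 in control soleus. It rose by 0.93 ± 0.17 in unloaded against control and by 1.38 ± 0.19 in walked against control (limma, adjusted p = 0.00715 and 0.00179), and both calls held in each of the 17 other fits made of it. No other gene of the list was called. Fkbp1a had a log2 fold change of -0.53 in unloaded against control on its brightest probe set (adjusted p = 0.0505 by limma). Its other probe sets gave -0.54, -0.43 and 0.21. Cacng1, the gamma subunit of the muscle calcium channel, was at 508 ± 4.95 in walked, 723 ± 56.0 in unloaded and 723 ± 84.0 in control soleus, with adjusted p = 0.0868 by limma between walked and unloaded and 0.0542 between walked and control. The list's median was 0.0049 for unloaded against control, 0.10 between walked and unloaded and -0.11 between walked and control.

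Of 13 glycolytic and related genes typical of fast fibres, 10 were tested and limma called 0 in each comparison, with 0 for unloaded against control, 1 between walked and unloaded and 1 between walked and control at an unadjusted p under 0.05. Their medians were 0.02, 0.04 and -0.0003 in the same order. The log2 fold changes of Pfkm, the muscle phosphofructokinase, were 0.02, -0.29 and -0.27 on its brightest probe set. On its other probe set they were -0.08, -0.02 and -0.10. Of 5 isoforms of immature muscle 4 were tested and limma called 0. Tnnt2, the troponin T of heart and immature muscle, was at 71.2, 111 and 70.5 in walked, unloaded and control soleus (0.68 in unloaded against control, adjusted p = 0.0851 by limma; -0.66 in walked against unloaded, adjusted p = 0.174 by limma). At an unadjusted p under 0.05, 1 of the 4 was higher in unloaded against control, and 1 was lower in each of the other comparisons.

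Of 13 slow fibre genes listed, 8 were tested. In walked against control 3 rose and 0 fell (3.74% of genes rose), with a median of 0.48 against -0.11 over all genes. The 3 are slow troponin I (Tnni1, 4733 ± 301 in walked and 3162 ± 27.5 in control, 0.58 ± 0.15, adjusted p = 0.0377 by limma), the slow regulatory light chain (Myl2, 5194 ± 26.7 and 3464 ± 568, 0.60 ± 0.16, adjusted p = 0.038 by limma) and the slow essential light chain (Myl3, 6320 ± 139 and 4247 ± 344, 0.58 ± 0.16, adjusted p = 0.0491 by limma). All 3 calls were lost after quantile normalization (0.41, 0.40 and 0.29), without either walked pool and without control pool 1 or 2, and those of Tnni1 and Myl3 without control pool 3. Myl3 also lost its call without unloaded pool 3. Myl2 had 1.94 and 1.29 on its other probe sets, and Myh7 0.47 on the brightest (adjusted p = 0.0618 by limma) and 1.06 on the other (adjusted p = 0.0164). In walked against unloaded limma called 0 of the 8 (1 higher at an unadjusted p under 0.05), with a median of 0.20. In unloaded against control 1 fell (2.5% of genes fell) and 0 rose, with a median of 0.26. The fall was in the tropomyosin Tpm3 (-0.95, and -1.48 to -0.14 on its other probe sets). The signal of its brightest probe set was lower than those above, at 513 ± 117 in walked, 367 ± 58.6 in unloaded and 706 ± 75.3 in control soleus. Which forms of Tpm3 the probe sets read was not tested. Tpm3 also went against the other slow genes between walked and control. It was at -0.47 on its brightest probe set (adjusted p = 0.144 by limma) and fell on another (-1.71, adjusted p = 0.0358 by limma). The remaining ones were at -1.39 and -0.26.

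**Figure D3:**
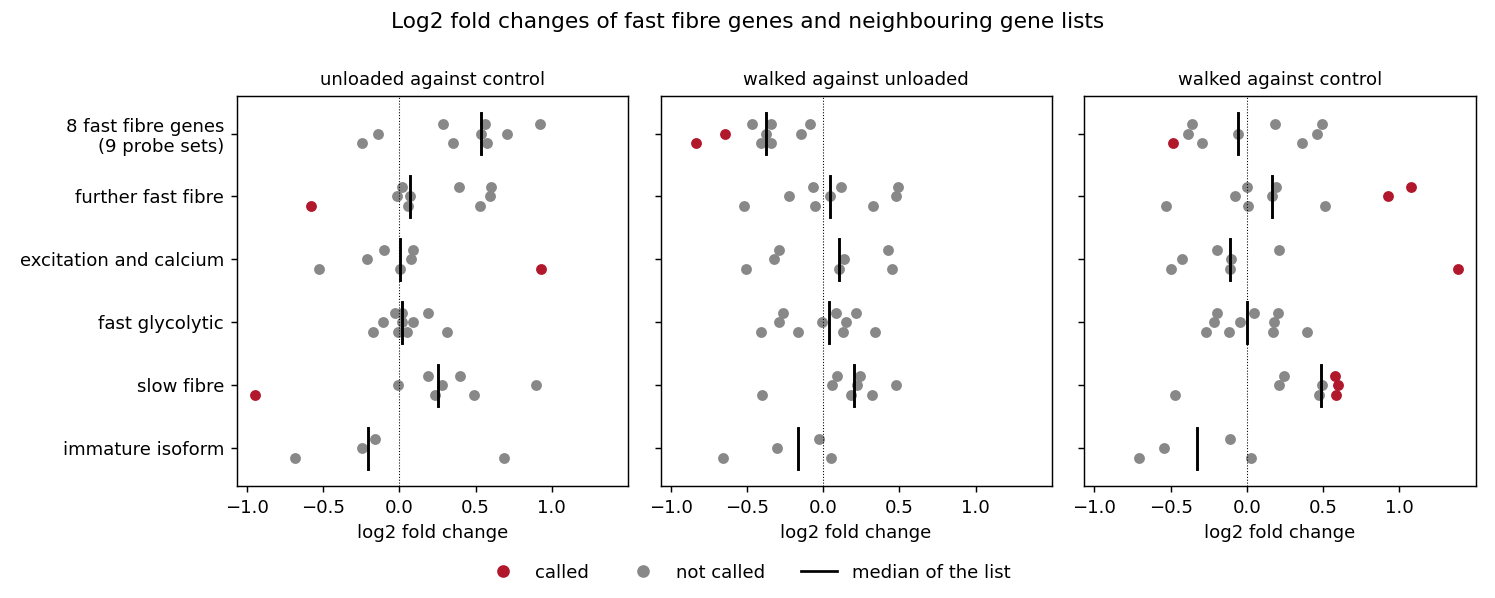
Log2 fold changes of the 9 fast fibre probe sets and of the tested genes of 5 further lists (1 probe set per gene, limma) in the 3 comparisons, with called genes in red, others in grey and the list's median as a bar. The fast fibre probe sets have medians of 0.54, -0.37 and -0.06, and the slow fibre genes 0.26, 0.20 and 0.48.

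Fast genes were then set against the slow gene of the same role within each array. The log2 ratio was taken relative to the control mean, on the brightest probe set of each gene, for the 5 pairs with both genes tested. This shows unequal change between a pair and not the level of either gene. Myh2 over Myh7 was at -0.60 and -1.07 in walked, 0.23, -0.27 and 0.18 in unloaded and -0.20, 0.19 and 0.0047 in control pools. Tnni2 over Tnni1 was at -0.86 and -0.90 in walked, 0.11, -0.33 and 0.37 in unloaded and -0.24, 0.34 and -0.10 in control pools. For both pairs the walked pools were lower than all others, while unloaded and control pools overlapped.

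Walked minus unloaded was -0.88 for Myh2 over Myh7 (exact permutation test, two-sided, p = 0.1) and -0.92 for Tnni2 over Tnni1 (exact p = 0.2), and walked minus control was -0.83 and -0.88 (exact p = 0.1 each). The smallest p these numbers of pools allow is 0.1, and adjusted over the 15 differences computed the values were 0.25 to 0.375. Unloaded minus control was 0.05 for each of the 2 pairs (exact permutation p = 0.9), and its sign turned with single arrays left out. On the other Myh7 probe set Myh2 over Myh7 was -0.33 for unloaded minus control, -1.09 for walked minus unloaded and -1.42 for walked minus control. Mylpf over Myl2 was at -0.27 and -0.21 in walked, 0.43, 0.31 and 0.54 in unloaded and 0.47, 0.73 and -1.19 in control pools, and walked minus unloaded was -0.67 (exact permutation p = 0.1, adjusted 0.25), against -1.30 and -0.66 on the other Myl2 probe sets. Only control pool 3 broke the order in which walked pools were the lowest.

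The calcium genes did not share that order. Atp2a1 over Atp2a2, the slow and cardiac pump, was at 0.48 and 0.07 in walked, 0.93, 0.56 and 0.27 in unloaded and -0.20, 0.24 and -0.03 in control pools, with every unloaded pool above every control pool (0.59, exact permutation p = 0.1, adjusted 0.25). On the other 3 probe sets of Atp2a2 that difference was 0.24, 0.61 and 0.72. Casq1 over Casq2, the slow and cardiac calsequestrin, averaged -0.98 ± 0.04 in walked (SD, n = 2) and -1.03 ± 0.13 in unloaded pools (n = 3), and was at -0.27, -0.71 and 0.99 in control pools. The unloaded difference from control was -1.03 (exact permutation p = 0.1, adjusted 0.25), but -0.54 without control pool 3, and walked minus unloaded 0.06 (exact permutation p = 0.9). Casq2 itself was at 519 ± 41.6 in walked, 688 ± 85.7 in unloaded and 413 ± 217 in control soleus, with no call.

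**Figure D4:**
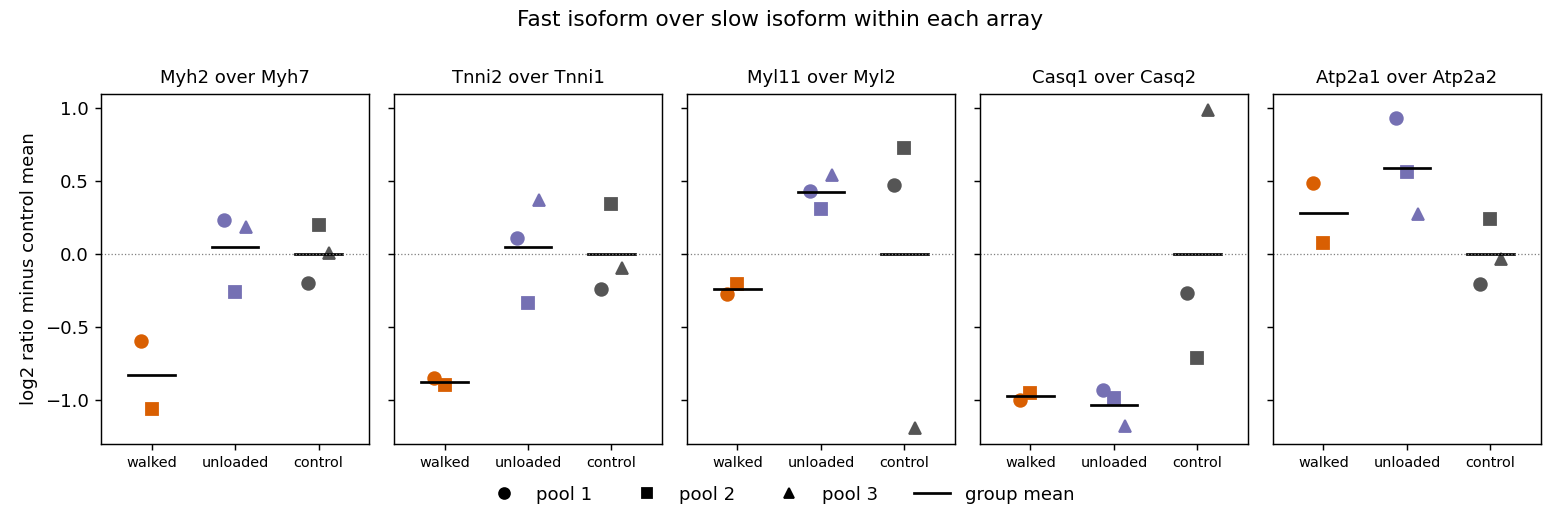
Log2 ratio of a fast gene over its slow counterpart within each array, minus the mean of the control arrays, for 5 pairs in walked, unloaded and control pools, with a marker shape for each pool number and a bar at the group mean. Both walked pools are below all other pools for Myh2 over Myh7 (-0.60 and -1.07) and Tnni2 over Tnni1 (-0.86 and -0.90), and control pool 3 stands apart for Myl11 (Mylpf) over Myl2 and for Casq1 over Casq2.

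The genes differed in how closely they followed their common pattern over the 8 arrays. With each gene's log2 signal standardised and averaged into 1 profile, Pearson's r of a gene with the profile, which contains that gene, was 0.96 for Tnni2 and 0.93 for both Myh2 and Tnnt3, 0.64 for Pvalb, 0.49 and 0.59 for Mylpf on its brighter and dimmer probe sets, 0.43 for Casq1, 0.39 for Atp2a1 and 0.30 for Myh4. The profile was at -0.50 and -0.79 in walked, 0.44, 0.55 and 0.76 in unloaded and -0.66, 0.55 and -0.36 in control pools, so control pool 2 stood with the unloaded pools. The genes outside the set whose log2 signal was most like it over the 8 arrays were Ndrg2 (r = 0.93; a signal of 3577 ± 164 in walked, 4272 ± 215 in unloaded and 3700 ± 243 in control soleus), the cAMP phosphodiesterase Pde4b (0.93; 148 ± 1.98, 277 ± 26.6 and 176 ± 34.2 in the same order), Ufsp2 (0.91), Irgm2 (0.91) and Pcca (0.91), a subunit of the mitochondrial propionyl-CoA carboxylase. They were chosen out of all tested genes for that likeness, so it is a description.

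Markers of other cells of whole muscle moved in places beside these genes, and their part in the results was not tested. In unloaded against control 1 of 4 tested smooth muscle markers fell (Tagln, -0.96). Acta2 was not called on its brightest probe set (-0.64) but fell on another (-2.42, adjusted p = 0.0278 by limma). The summed signal of the 4 was 1071 to 1385 in unloaded, 1676 to 2356 in control and 1449 to 1734 in walked pools. In the same comparison the adipocyte marker Fabp4 rose (1.52, 1 of 4 tested). Lpl was at 0.46, but Lep at -0.28 and Cfd at -0.43, with no call. The 4 had sums of 3681 to 4152 in walked, 3797 to 4810 in unloaded and 3506 to 3695 in control pools. The leukocyte marker Cd48 also rose there (1.40, 1 of 4). Lyz2 was at 0.10, but Ptprc at -0.83 and Cd74 at -0.34, with no call. Sums of the 4 were 617 to 656 in walked, 656 to 860 in unloaded and 720 to 789 in control pools. Between walked and control 1 of the 4 fell (Cd74, -0.65). Cd48 went the other way there (0.92, adjusted p = 0.0649 by limma). Lyz2 was at -0.05 and Ptprc at -0.85, with no call. Of 3 tested Schwann cell and nerve markers 1 fell in walked against unloaded (Prx, -1.23). Mbp (0.41) and Pmp22 (0.23) went the other way with no call. Sums of the 3 were 403 to 420 in walked, 369 to 426 in unloaded and 431 to 477 in control pools. Limma called 0 of 3 endothelial markers (277 to 308, 280 to 300.4 and 290.5 to 355) and 0 of 2 red cell markers (2714 to 3764, 3478 to 5565 and 3945 to 4801 in walked, unloaded and control pools), with 0 at an unadjusted p under 0.05. The summed signal of 6 slow fibre markers was 28170 to 31118 in walked, 22354 to 30379 in unloaded and 20470 to 22516 in control pools. That of 5 fast fibre markers was 7352 to 7460, 8703 to 10070 and 7020 to 8710 in the same order. These 5 include Myh2 and Myh4 of the genes followed here, so their sum is not a separate reading.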

How the data were processed

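Soleus RNA of 8 pools of rats (2 walked, 3 unloaded, 3 control), 10 microg per array, was hybridised to 1-colour Affymetrix arrays, per the labels. Each deposited value is a linear signal intensity of 1 probe set, made by the authors with MAS5 per the submitters' processing notes, which name no version or scaling target. Trimmed means (2% off each end) were 148 to 149 on every array.

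Each array was scaled to a trimmed mean of 148.6, signals under the 10th percentile (4.10) were set to it, and log2 was taken. Probe sets under the 40th percentile of mean signal (25.8) were left out. Signals printed per array are as deposited. limma 3.58.1 (R 4.3.3; lmFit, contrasts.fit and eBayes with a trend, two-sided) was fitted to all 8 arrays with 5 residual degrees of freedom, after a check on simulated data, and p-values were adjusted by Benjamini-Hochberg over 5244 probe sets. The number of arrays limits the precision, and no group exceeds 3 pools.

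Symbols came from the platform annotation, in which 7006 probe sets carry 1 symbol, 308 several and 1426 none; 6985 were found in the GRCr8 gene table. No genome build belongs to the values. Lists use the brightest probe set of a gene. All member probe sets are named, with up to 4 called genes of each list by smallest p, slow or fast counterparts of members, and the 5 genes most like the members' mean. Ldb3 and Calm2 were named as called genes. Cacng1, Fkbp1a, Pfkm, Tnnt2, Tpm1 and the markers that were not called were named after their values were seen. Members and lists were chosen with earlier results of these data known. Alternatives were quantile normalization, no rescaling, 2 other floors, 2 other filters, no trend, 2 groups per fit, a replicate block, a minimum fold of 1.5, each array left out and, for ratios, other probe sets.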

Additional observations from a re-analysis of the deposited data

How the results depend on the processing

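In unloaded against control, 0 of the 9 probe sets were called under any alternative that kept all arrays, and 0 to 2 with 1 array left out. In walked against unloaded, the 2 calls became 0 with no filter on dim probe sets, 0 without a mean-variance trend, 1 with the pool number as a replicate block (Tnni2) and 0 to 2 with 1 array left out. In walked against control, the 1 call became 0 with no filter, 0 without a trend, 0 with the replicate block, 0 with a fold change of at least 1.5 and 0 to 1 with 1 array left out. No other alternative changed these counts, and Myh4 was not tested under the stricter filter. Without a filter more probe sets shared the adjustment, and the SEs of the fit also changed. In walked against unloaded that of Tnni2 went from 0.183 to 0.191 and that of Myh2 from 0.144 to 0.131. The cause of these and the other losses was not tested. Signs turned in values that were not called and lay between the following limits with 1 array left out: Atp2a1 in walked against unloaded (-0.24 to 0.0048), and in walked against control Tnnt3 (-0.13 to 0.0346), Mylpf (-0.11 to 0.63 on the brighter and -0.0077 to 0.79 on the dimmer probe set) and Pvalb (-0.31 to 0.49).

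No shared deviation was seen between pools with the same number (correlations of -0.07 to 0.05). With so few pools per group this cannot decide whether the numbers pair the samples. The count of all probe sets called moved by over 1.5 times in unloaded against control, from 383, with no filter (228), no trend (243), and without unloaded pool 1 (246) or 2 (230). In walked against unloaded 220 became 123 and 120 without walked pool 1 and 2. In walked against control 476 became 216 with no filter, 211 without a trend, 251 with the replicate block, 257 and 297 without control pool 2 and 3, and 146 and 105 without walked pool 1 and 2. Dim signals limit Myh4 and Pvalb. The calls of Ldb3, Ckm, Acta1 and the 3 slow fibre genes were also lost with no filter and without a trend, and those of Ckm, Tnni1 and Myl3 with the replicate block; Ckm also after quantile normalization (0.73). These were chosen after seeing the data.

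Ratios of a fast over a slow gene were also taken, after seeing the data, without each array and on other probe sets. With 1 array left out, unloaded minus control ran between -0.0509 and 0.206 for Myh2 over Myh7, -0.114 and 0.236 for Tnni2 over Tnni1, and -0.17 and 0.789 for Mylpf over Myl2, walked minus control between -0.838 and 0.122 for Mylpf over Myl2, and walked minus unloaded between -0.0146 and 0.107 for Casq1 over Casq2. Signs also turned on other probe sets, for unloaded minus control with Myh7 (-0.329) and Myl2 (-0.278 on each of 2), and for walked minus unloaded with Atp2a2 (0.247, 0.282 and 0.142). The cause was not tested.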
